A study of Mus musculus with 10 samples.

Results

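The ribosomal protein genes encode the protein part of the cytosolic ribosome. They were taken as the protein-coding RefSeq genes (mouse build mm10) whose symbol is Rpl or Rps followed by a number, or Rplp0, Rplp1, Rplp2 or Rpsa, leaving out the Rps6k kinase genes and Rps19bp1. This gave 90 of 21883 protein-coding genes on the autosomes, X and Y. Of these, 77 are the core genes, with 46 of the large subunit (3 of them for its stalk) and 31 of the small subunit. The other 13 are paralogs or retrocopies by their symbols, such as Rpl22l1 or Rps27rt. Open chromatin had been profiled by ATAC-seq, in which a transposase cuts accessible DNA, in sorted thymic epithelial cells of wild-type C57BL/6 mice. The study concerns how the thymus regulator Foxn1 is itself controlled. The 5 groups have 2 libraries each. Those called E15 and E17 come from embryos at day 15 and day 17, and the others from day 6, where 3 fractions carry the labels mTEC1, mTEC2 and mTEC4. The deposited files name these fractions differently from the sample titles, which were followed here. The labels do not spell out the fraction names, do not say how many mice were pooled, and do not say whether the 2 libraries of a group came from separate animals, so p-values measure only the spread between these libraries. No allele or treatment other than wild type is given for any group.

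Each library is represented by its own list of called peaks, and the 10 lists held 40858 to 151646 peaks each, 882163 in all. Read depth is unknown, and a site without a peak is a site where none was called. The second mTEC2 list is the shortest. The labelled cell type was checked against fixed markers, counting genes with a peak within 1 kb of either end. Of 13 thymic epithelial markers such as Epcam, Foxn1 and Krt8, 12 or 13 had one in each embryonic list and 5 to 10 in each day 6 list. These shares were 92.3 to 100% and 38.5 to 76.9%, against 64.4 to 69.8% and 44.0 to 61.0% of all protein-coding genes. The day 6 share of these markers was thus near the background. Of 6 thymocyte markers 0 to 4 had such a peak in a list, and of 3 endothelial and of 3 erythroid markers 0 to 2. Of 3 dendritic cell and macrophage markers none had one in any list. Of 4 mesenchymal markers, 3 had a peak in each embryonic list and 0 to 2 in each day 6 list. Peaks inside the gene span, away from both ends, were not counted here. Of the dendritic cell and macrophage markers, 1 or 2 held one in each day 6 list and 0 or 1 in each embryonic list. Of the endothelial markers, 1 to 3 did in each list. All 4 mesenchymal markers did in each embryonic list, and 1 to 4 in each day 6 list. For thymocyte markers the counts were 3 in each embryonic list and 2 or 3 in each day 6 list. For erythroid markers they were 0 or 1 and 1 or 2, and for thymic epithelial markers 6 to 9 and 4 to 8, in the same order. Over all protein-coding genes the share was 31.8 to 48.7% at day 6 and 46.9 to 56.4% in embryonic lists.

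A ribosome contains one copy of most of these proteins, so cells make them in matched amounts, and their genes are among the most strongly transcribed housekeeping genes in dividing cells. Their promoters typically lack a strong TATA box. Their transcripts usually begin with a C and a run of pyrimidines, the 5′ terminal oligopyrimidine tract, through which growth signals acting by mTOR set how much of the mRNA is translated. Many also carry small nucleolar RNAs (snoRNAs), which guide the modification of ribosomal RNA, inside their introns, and processed copies of their mRNAs have been inserted throughout the genome. In the thymus the family is known for Rpl22, whose loss impairs the development of alpha beta T cells.

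Starts of transcription were available for 69 of the 90 members (57 core genes and 12 copies) in a RefSeq promoter table of GRCm38.p6, the assembly behind mm10. The sequences here run from 70 bases before the annotated start to 20 bases from it, on the strand of the gene. Capitals mark a pyrimidine run, a C followed by at least 4 further C or T that begins within 5 bases of the start. The first 3 belong to core genes from the small subunit, the stalk and the large subunit, and the next pairs set a core gene with a peak in all 10 lists above a copy with a peak in none. The last is the start of Rpl22l1, a paralog with a peak in all 10 lists. In order, they lie at chr4:86857348-86857437 (minus), chr7:141447581-141447670 (plus), chr14:18270967-18271056 (minus), chr3:90213629-90213718 (minus), chr9:114982720-114982809 (minus), chr1:39367781-39367870 (plus), chr16:16820177-16820266 (minus) and chr3:28805438-28805527 (plus).
Rps6: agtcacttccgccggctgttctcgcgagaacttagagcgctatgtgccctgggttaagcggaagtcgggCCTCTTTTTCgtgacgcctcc
Rplp2: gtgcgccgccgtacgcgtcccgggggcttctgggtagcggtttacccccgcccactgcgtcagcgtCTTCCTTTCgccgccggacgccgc
Rpl15: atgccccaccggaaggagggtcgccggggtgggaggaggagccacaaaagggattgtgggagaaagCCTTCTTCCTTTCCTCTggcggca
Rps27: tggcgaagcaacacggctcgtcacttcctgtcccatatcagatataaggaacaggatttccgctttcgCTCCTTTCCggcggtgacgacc
Rps27rt: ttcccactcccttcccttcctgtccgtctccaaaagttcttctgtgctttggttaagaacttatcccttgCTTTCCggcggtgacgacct
Rpl31: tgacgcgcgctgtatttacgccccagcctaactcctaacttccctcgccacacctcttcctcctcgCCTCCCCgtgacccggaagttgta
Rpl31-ps12: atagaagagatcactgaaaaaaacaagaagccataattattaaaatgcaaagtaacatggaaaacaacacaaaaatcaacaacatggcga
Rpl22l1: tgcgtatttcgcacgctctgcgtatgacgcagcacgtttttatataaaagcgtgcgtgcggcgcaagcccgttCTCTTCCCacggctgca

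Such a run was present in 27 of 57 core genes (47.4%), against 21.5% of 17491 protein-coding genes in the table. Longer runs reaching in from further upstream were counted too, from their first C in that range. With runs beginning up to 20 bases from the start, the shares were 80.7% of core genes and 54.0% of all genes. Over the full 300 bases of each promoter, the letters CCGGAAG (an ETS factor motif), searched on both strands, were found in 24 of 57 core genes (42.1%) and in 12.9% of all genes. AAGATGG (YY1) was found in 15.8% and 7.18%, GGGCGG (Sp1) in 61.4% and 49.2%, and TATAAA (the TATA box) in 10.5% and 14.8%, in the same order. CCGGAAG and AAGATGG can overlap by the letters AAG. These are matches of letters and not sites of binding. The median core promoter held 22 CpG dinucleotides, against 13 over all genes.

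Of the 90 ribosomal protein genes, 64 (71.1%) had a boundary peak, one within 1 kb of either gene end, in all 10 lists. Over all protein-coding genes the share was 35.6%. The core genes supplied 60 of the 64, with 34 of 46 large subunit genes and 26 of 31 small subunit genes. In the E15 lists 80 and 81 members had a boundary peak, in the E17 lists 82 and 82. In the mTEC4 lists the counts were 73 and 76, in the mTEC1 lists 77 and 77, and in the mTEC2 lists 79 and 73. With the full lists, all 4 embryonic lists thus stood above all 6 day 6 lists. So they did over all genes, at 64.4 to 69.8% of genes against 44.0 to 61.0%. The order of the means turned round when each list was held to its 10000 strongest peaks. Then 28 to 43 members were called in embryonic lists (mean 35.5) and 39 to 56 in day 6 lists (mean 47.8). Over all genes the mean shares were 20.2% and 26.5%. Both lists of a group had the peak for 80 members at E15, 82 at E17, 69 in mTEC4 and 73 each in mTEC1 and mTEC2.

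**Figure D1:**
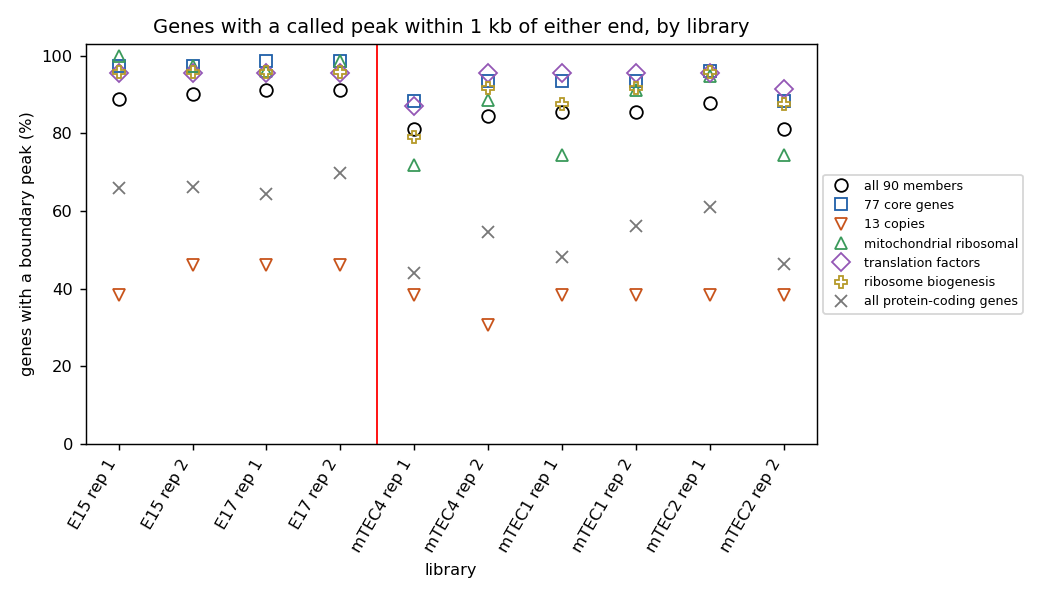
Percent of genes with a called peak within 1 kb of either end (vertical axis) in each library (horizontal axis, embryonic left of the red line), for the 90 members, their core genes and copies, 3 comparison lists and all protein-coding genes. The 77 core genes lie between 88.3 and 98.7% and all genes between 44.0 and 69.8%.

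Any peak in the gene span or within 1 kb of it was called in all 4 embryonic lists for 77 of 77 core genes, against 73.6% of all genes. In all 10 lists the count was 63 of 77 core genes, against 10947 of 21883 genes in all. Another protein-coding gene lay within 1 kb of 36 members, and a boundary peak there may belong to either gene. Of the 54 members without such a neighbour, 39 (72.2%) had a boundary peak in all 10 lists, and of all genes without one, 28.4%. Members were short, with a median span of 3170 bp against 17170 bp over all genes. Of the 90, 30 (33.3%) contained annotated snoRNA genes, 59 in total, against 1.70% of all genes. Rpl4 held the most, 5.

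The genes for other parts of the translation machinery were examined in the same way. Of 78 mitochondrial ribosomal protein genes, 45 (57.7%) had a boundary peak in all 10 lists. Of 23 translation factors and partners of the cytosolic ribosome, such as Eef2, Npm1 and Rack1, 20 had one, and of 24 ribosome biogenesis genes, such as Ncl and Fbl, 19. The mitochondrial list was lower in the first mTEC4, the first mTEC1 and the second mTEC2 list than in the others, and so were all genes, at 44.0, 48.2 and 46.4% against 54.5 to 69.8%. Of 318 annotated ribosomal protein pseudogenes none had a boundary peak in all 10 lists, and 219 (68.9%) had none in any. Over all 10429 pseudogenes, 1.27% had one in all 10 lists and 69.1% had none in any, so the share without any was near the background. In each embryonic list the ribosomal protein pseudogenes lay below all pseudogenes (5.03 to 12.3% against 8.89 to 15.1%). At day 6 they lay on both sides, with 7.86% against 7.33% in the first mTEC4 list and 1.57% against 4.51% in the second mTEC2 list.

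The core genes without a boundary peak in a given list were few and mostly at day 6. In the embryonic lists only Rps2 (4 lists) and Rpl17 (both E15 lists) were without one. Of the day 6 lists, the first mTEC4 list and the second mTEC2 list were each without one for 9 core genes, and the other 4 lists for 3 to 5. Rpl19, Rpl22, Rpl23 and Rpl17 were missing from both of those 2 lists. Without those 2 libraries, 72 members had a boundary peak in all 8 remaining lists, against 43.2% of all genes.

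**Figure D2:**
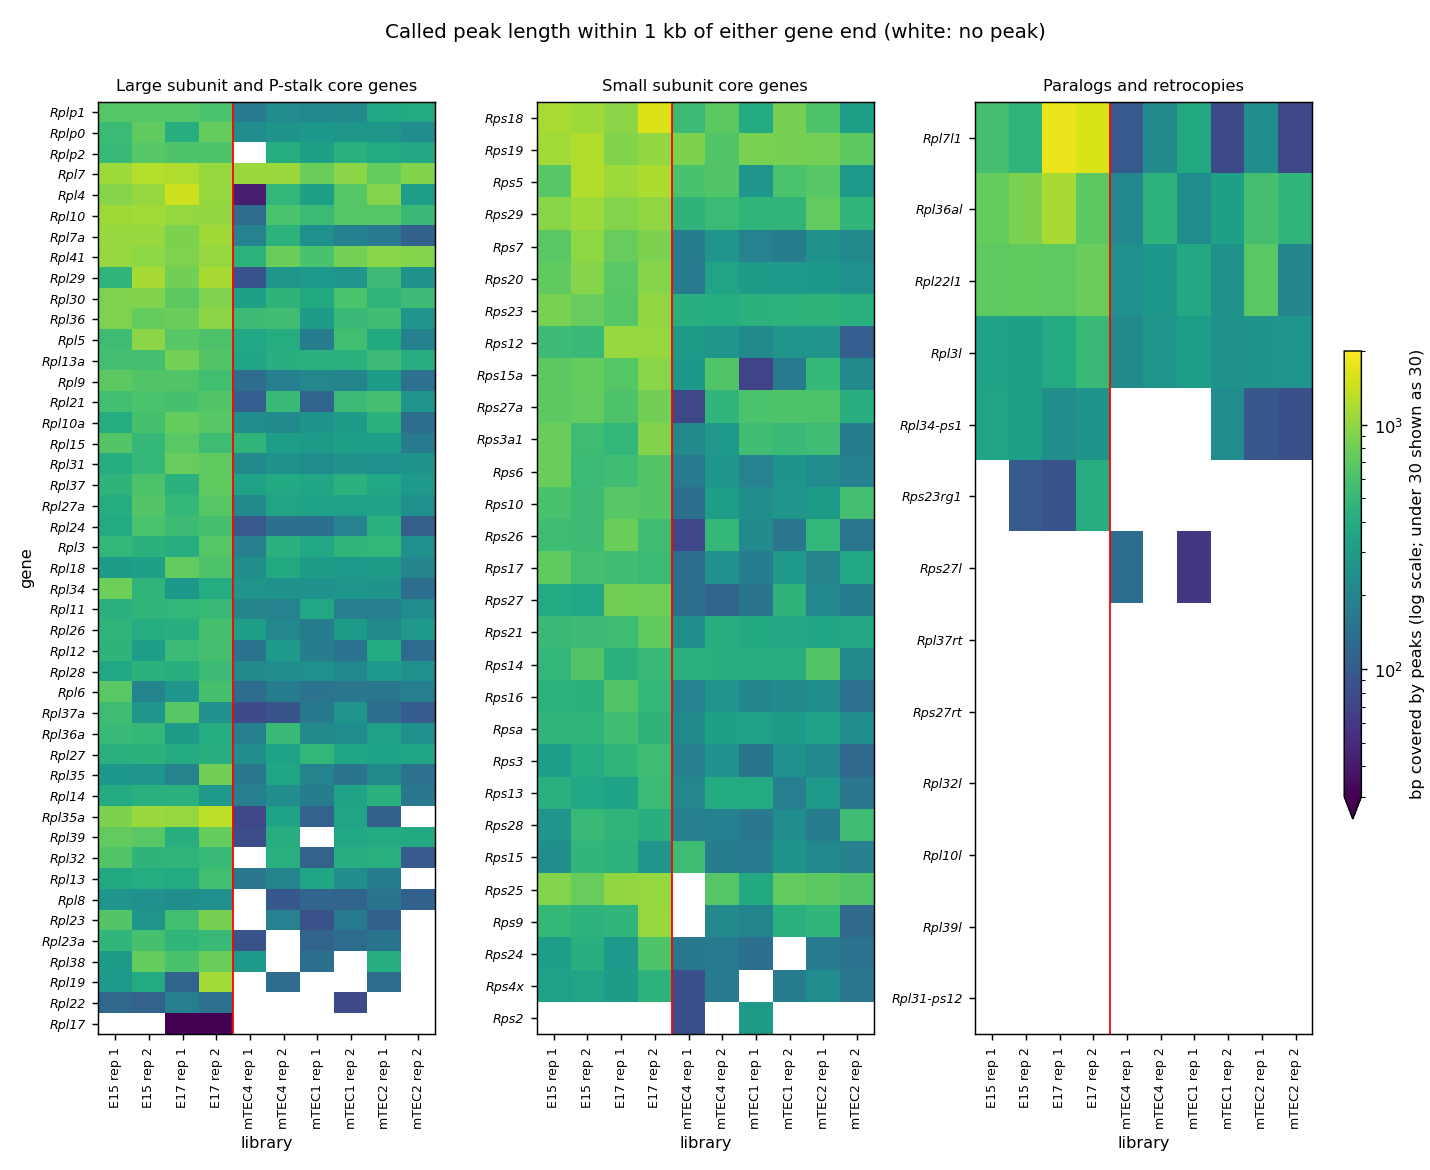
Base pairs covered by called peaks within 1 kb of either gene end (colour, log scale, white for no peak) for 87 of the 90 members (rows) in each library (columns, embryonic left of the red line). Most core rows are filled in all 10 columns and lighter on the left, while 6 of the 13 copies are white throughout.

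The presence of a boundary peak was compared between the 4 embryonic and the 6 day 6 libraries with Fisher's exact test, two-sided, adjusted by the Benjamini-Hochberg method over the 8798 genes called in some but not all lists. Of the 20 members in that set none passed an adjusted p of 0.05, and neither did any other gene (0%). The smallest Fisher's exact p possible with 4 and 6 libraries is 0.00476. Adjusted over so many genes, it can pass only if many genes reach it, so the absence of calls does not show equal presence. At an unadjusted p of 0.05, 2 members passed, among 1576 genes of which 1563 were called more often in embryonic lists. Rpl22 had the peak in 4 of 4 embryonic and 1 of 6 day 6 lists (Fisher's exact p = 0.0476, adjusted p = 0.266). Rps23rg1 had it in 3 of 4 and 0 of 6 (Fisher's exact p = 0.0333, adjusted p = 0.266). With peaks of −log10 q of at least 5 alone, 8 of 69 members tested passed the adjusted test, all called more often in embryonic lists, where 16.4% of all genes tested passed. This threshold was the same for all lists, whose −log10 q differed. For the members' strongest boundary peaks, the median was 11.9 to 19.9 in embryonic lists and 3.44 to 9.15 in day 6 lists. Over all genes it was 9.27 to 13.5 and 3.26 to 6.12. What part this had in the 8 calls was not tested.

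The length of sequence covered by peaks at the gene ends differed more clearly. For each gene, the bp covered within 1 kb of either end were compared by an exact two-sided permutation test over the 210 ways to choose 4 of 10 libraries, adjusted over the 16599 genes with a boundary peak in some list. Neither this test nor Fisher's exact test took account of the 5 groups of 2 libraries, and each library counted as independent. Of 84 members tested, 68 (81.0%) had more bp in the embryonic libraries and none had fewer. Over all genes tested 76.8% had more and 0.0542% fewer, so the members' share was near the background. The median difference was 291 bp for members and 328 bp for all genes. In 52 of the 84 members every embryonic library lay above every day 6 library, and so it did in 9893 of the 16599 genes.

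Age and sorted fraction differ together between these libraries and cannot be told apart, and peak width can also depend on depth, which was not tested. The mesenchymal markers above moved with age as well, and their part in the widths was not tested. With all lists brought to 40858 peaks by rank, 53 members (64.6%) passed, against 51.4% of all genes tested. With 10000 peaks each, 13 passed (17.8%), against 11% of all genes tested. In that setting 30 of the 73 members tested had fewer embryonic bp, against 2 of 84 with the full lists. The median difference was then 40.9 bp for members and 34.6 bp for all genes. With the full lists, where 68 of 84 members passed, so did 70 of 78 mitochondrial ribosomal protein genes. The same test passed 21 of 22 translation factors tested and 18 of 23 biogenesis genes tested. All that passed with the full lists in these 4 sets had more bp in the embryonic libraries.

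Of the stalk genes, whose products form the flexible arm that recruits translation factors to the ribosome, Rplp0 (chromosome 5, 115559467 to 115563729) had one of the strongest peaks of the family. It covered 527 and 718 bp in the E15 lists, 412 and 745 in the E17 lists, 234 and 264 in mTEC4, 280 and 276 in mTEC1 and 275 and 229 in mTEC2. The embryonic and day 6 values did not overlap, with means of 600 ± 159 bp (SD, n = 4) and 260 ± 22.5 bp (SD, n = 6; exact permutation adjusted p = 0.00949, the smallest possible here). Rplp1 (chromosome 9, 61913283 to 61914510) covered 666, 657, 665 and 611 bp in the E15 and E17 lists and 166, 229, 212, 222, 371 and 390 bp in the day 6 lists, again without overlap. Rplp2 (chromosome 7, 141447651 to 141451359), whose start is printed above, covered 514, 675, 626 and 629 bp in the embryonic lists. In the first mTEC4 list it had no boundary peak, and in the other 5 day 6 lists it covered 328 to 429 bp. Its groups did not overlap either. A peak lay over the start of Rplp2 itself in 4 of 4 embryonic and 2 of 6 day 6 lists.

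Among large subunit genes, Rpl5 and Rpl11 bind the 5S ribosomal RNA and, outside the ribosome, the p53 regulator Mdm2. Rpl11 (chromosome 4, 136049354 to 136053393) covered 437, 479, 485 and 509 bp in the embryonic lists. At day 6 it covered 204 and 193 bp in mTEC4, 369 and 183 in mTEC1 and 183 and 232 in mTEC2, all below the embryonic values (difference of means 250 bp, exact permutation adjusted p = 0.00949, n = 4 and n = 6). Rpl5 (chromosome 5, 107900508 to 107909005) covered 544 to 971 bp in the embryonic and 178 to 561 bp in the day 6 lists, and only the highest day 6 library, the second of mTEC1, reached above the lowest embryonic one. Its difference of 352 bp passed the test (exact permutation adjusted p = 0.0157, n = 4 and n = 6).

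Rpl10, which joins the large subunit last in its maturation, lies on the X chromosome (74270816 to 74273135) within 1 kb of Dnase1l1. It covered 1005 to 1116 bp in the embryonic lists and 131 to 661 bp at day 6, where the first mTEC4 list was far below the other 5 (505 to 661 bp). Rpl23 (chromosome 11, 97777526 to 97782439), which can also bind Mdm2, covered 646, 275, 563 and 840 bp in the embryonic lists. At day 6 it covered 193, 85, 171 and 111 bp in 4 lists and had no boundary peak in the first mTEC4 and second mTEC2 lists, so that the groups did not overlap.

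Rpl3, which reaches into the peptidyl transferase centre (chromosome 15, 80077781 to 80083406), was a member whose difference did not pass. It covered 483, 449, 411 and 664 bp in the embryonic lists and 188 to 482 bp at day 6, with overlapping groups (exact permutation adjusted p = 0.157, n = 4 and n = 6). A further narrow peak of 74 to 157 bp lay inside Rpl3 in the 4 embryonic lists and in the second mTEC2 list. Rpl4 (chromosome 9, 64173387 to 64178562), which lines the exit tunnel, covered 929 to 1453 bp in the embryonic lists and 43 to 917 bp at day 6, and no day 6 value reached the embryonic ones. Its strongest boundary peak was not at its start. In all 10 lists that peak began past the far end of Rpl4, where the neighbouring gene Snapc5 lies within 1 kb. Over the start of Rpl4 a peak was called in 4 of 4 embryonic lists and 0 of 6 day 6 lists. Peaks came close to it in 2 of these 6, ending 6 bp upstream of the start in the first mTEC2 list and beginning 8 bp downstream in the second mTEC1 list.

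The small subunit genes named for their roles all had a higher embryonic mean. Rps6, the target of the S6 kinases downstream of mTOR (chromosome 4, 86854099 to 86857367), covered 778 and 526 bp at E15, 552 and 650 at E17, 167 and 276 in mTEC4, 194 and 265 in mTEC1 and 233 and 190 in mTEC2. Its embryonic mean of 626 ± 114 bp (SD, n = 4) and day 6 mean of 221 ± 44.1 bp (SD, n = 6) came from groups that did not overlap. Rps19, mutated in Diamond-Blackfan anaemia (chromosome 7, 24884592 to 24889811), stayed wide at day 6, with 640 to 870 bp, against 899 to 1224 bp in the embryonic lists. Rpsa, also known as the laminin receptor (chromosome 9, 120127766 to 120132369), covered 461 to 555 bp and 220 to 333 bp, again without overlap.

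Rps27a, made as a fusion with ubiquitin (chromosome 11, 29545842 to 29548040), covered 619 to 812 bp in the embryonic lists and 426 to 634 bp in 5 day 6 lists, with 74 bp in the first mTEC4 list. Its groups overlapped, and its difference of 240 bp passed the test (exact permutation adjusted p = 0.044, n = 4 and n = 6). Rps4x, on the X chromosome (102184941 to 102189391), covered 299 to 451 bp in the embryonic and 0 to 230 bp in the day 6 lists, the 0 being the first mTEC1 list. Of the genes named for their roles, Rpl5, Rpl10, Rpl23, Rplp1 and Rps4x had fewer embryonic bp when each list was held to its 10000 strongest peaks. A second peak of 105 to 168 bp lay inside Rps4x in 4 of 4 embryonic and 0 of 6 day 6 lists.

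**Figure D3:**
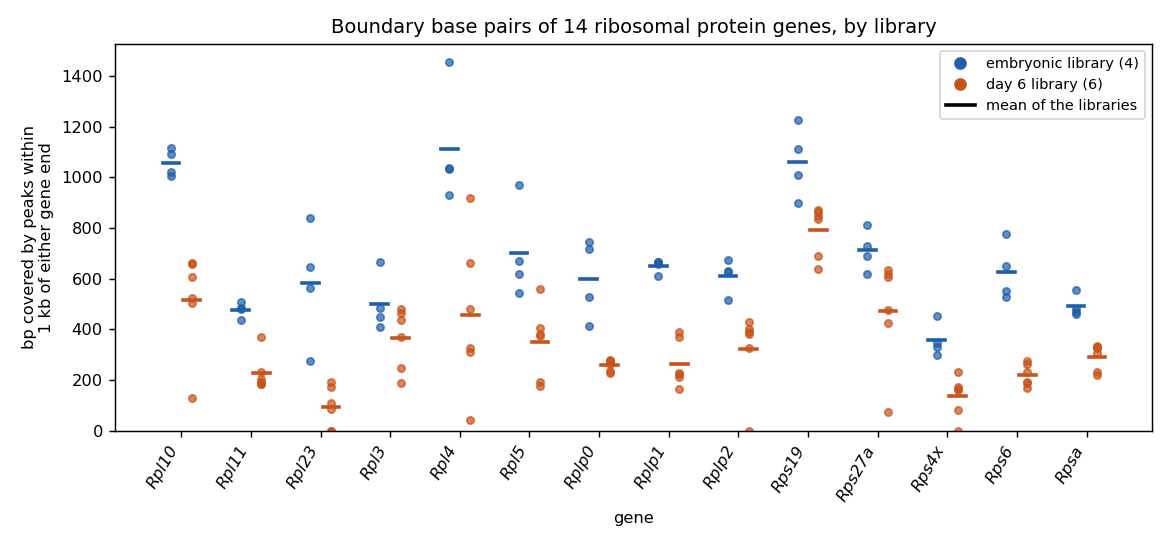
Base pairs covered by peaks within 1 kb of either end (vertical axis) for 14 ribosomal protein genes (horizontal axis), with 1 point per library in blue (embryonic) or orange (day 6) and a bar at the mean of each. In 11 of the genes the lowest embryonic library lies above the highest day 6 library, and in Rpl3, Rpl5 and Rps27a the points overlap.

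The differences that passed the test were largest for Rpl7l1 (922 bp), Rpl35a (904 bp), Rpl7a (790 bp), Rpl4 (655 bp) and Rps18 (643 bp). Rpl29 (613 bp), Rps7 (605 bp) and Rpl10 (544 bp) were also among the largest. Rpl35a (chromosome 16, 33056453 to 33060189) covered 870, 1071, 1022 and 1311 bp in the embryonic lists. It covered 73 to 349 bp in 5 day 6 lists and had no boundary peak in the second mTEC2 list. The paralog Rpl7l1 (chromosome 17, 46773907 to 46782656) was uneven among embryonic libraries, with 577 and 471 bp at E15 and 1781 and 1586 bp at E17. Both were above its day 6 range of 75 to 382 bp. Where lists were held to 10000 peaks, the difference turned to fewer embryonic bp for Rpl7l1, Rpl35a, Rpl7a, Rps18, Rpl29 and Rpl10. A comparison of E15 with E17 has 2 libraries on each side and a smallest exact p of 0.333, so no test is given.

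At an annotated start, any of them where a gene has several, a peak covered the base in all 57 core genes in each of the 4 embryonic lists. In all 4 of these lists together it did so for 54.2% of the 17491 genes with a start. At day 6 the core counts were 45 and 50 of 57 in mTEC4, 45 and 49 in mTEC1 and 54 and 45 in mTEC2. A peak over the start in all 6 day 6 lists was called for 31 core genes (54.4%), against 22.8% of all genes. Over the most upstream start a peak was called in 56 of 57 core genes in each embryonic list and in 44 to 53 at day 6. Where a peak covered the most upstream start of a core gene, the median peak reached 249 ± 51.4 bp upstream and 239 ± 16.3 bp downstream of it in embryonic libraries (SD, n = 4). At day 6 it reached 150 ± 17.0 bp upstream and 65.2 ± 9.71 bp downstream (SD, n = 6). The downstream edge thus differed more than the upstream one. The same was seen over all genes, with 249 and 316 bp in embryonic and 157 and 81.7 bp in day 6 libraries.

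**Figure D4:**
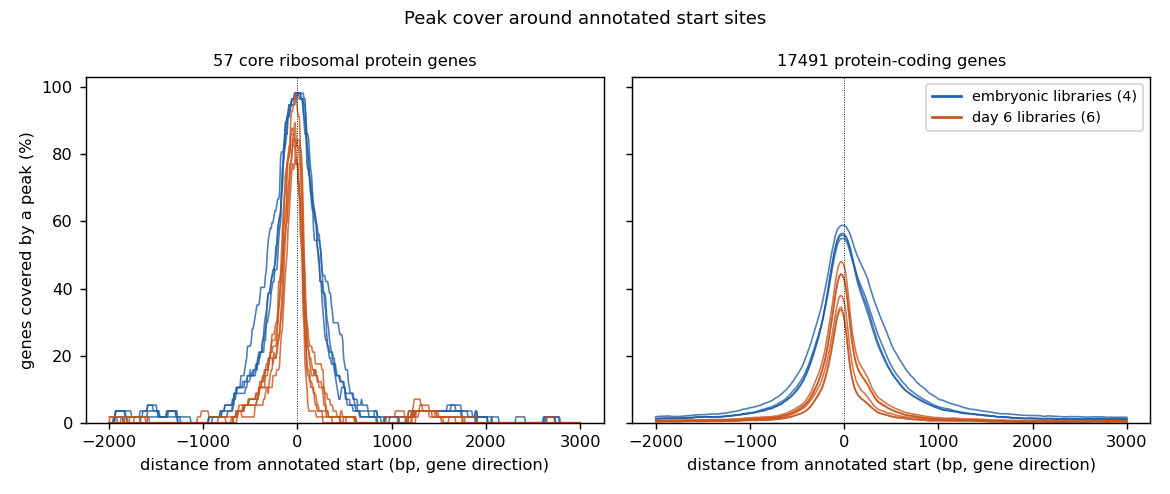
Percent of genes covered by a called peak (vertical axis) at each distance from the most upstream annotated start (horizontal axis, in the direction of the gene), with 1 line per library, for 57 core genes (left) and 17491 protein-coding genes (right). Embryonic lines (blue) are broader than day 6 lines (orange) in both, and the core genes peak higher than all genes.

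Within each list, peaks were ranked by the deposited −log10 q, and the rank of a gene's strongest boundary peak is given here as a percent of that list's length, low being strong. The median member ranked ahead of the median gene in each of the 10 lists. The members' medians were 7.61 and 9.42% at E15 (all genes 14.5 and 14.6%) and 16.6 and 10.1% at E17 (24.8 and 18.2%). In mTEC4 they were 12.6 and 9.23% (14.3 and 11.9%), in mTEC1 8.77 and 8.32% (10.9 and 13.2%) and in mTEC2 5.46 and 17.8% (10.7 and 25.3%). Ranks come from lists of different lengths and give no change between lists. The width of that peak lay on both sides of all genes. The members' median was 489 bp in both E15 lists, below the 511 and 519 bp of all genes, and 311 and 225 bp in the mTEC2 lists, above the 285 and 202 bp of all genes.

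**Figure D5:**
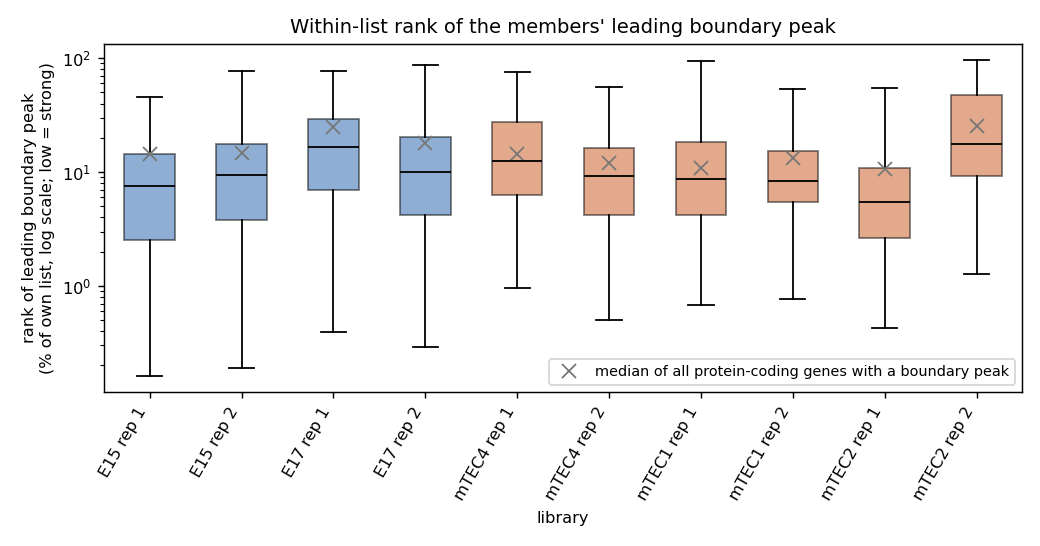
Rank of the strongest boundary peak of each member, as a percent of the list's length (vertical axis, log scale, low is strong), for each library (horizontal axis), as boxes from the lower to the upper quartile with the median and whiskers to the extremes. Grey crosses give the median over all protein-coding genes, which lies above the members' median in each of the 10 lists.

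Rpl15 (chromosome 14, 18267823 to 18270986) had the best mean rank, at 0.923%. Its 10 values ran from 0.192 to 3.72%, and it was the first or second of all members in 8 of the 10 lists. Rpl37 followed with a mean of 1.47%, Rpl31 with 1.97%, Rpl34 with 2.09% and Rplp0 with 2.32%. Among members called in all 10 lists, the weakest ranks were those of Rpl7 (36.4%), Rps15a (33.0%), Rpl7l1 (28.0%), Rpl4 (26.4%) and Rpl9 (26.3%). The widest leading peak was also that of Rpl7 (chromosome 1, 16101295 to 16104433), with a mean of 1190 bp. Its peaks covered the high-coordinate end of the gene and, in each embryonic list, ran 1420 to 1814 bp beyond it. At day 6 they reached 843 to 1510 bp beyond it. The second mTEC4 and first mTEC2 lists, at 1502 and 1510 bp, lay within the embryonic range. In the first mTEC1 and the first mTEC2 lists the same stretch was called as 2 peaks. Of the members called in all 10 lists, Rps19 (777 bp), Rpl10 (732 bp), Rps29 (708 bp) and Rpl30 (616 bp) came next. Among the same members, those with the narrowest leading peaks included Rpl26 (223 bp), Rps15 (250 bp), Rpl37a (257 bp) and Rpl6 (268 bp).

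The 13 copies divided into several kinds. Boundary peaks in all 10 lists were called for 4, Rpl3l, Rpl7l1, Rpl22l1 and Rpl36al. None in any list was called for 6, Rpl10l, Rpl31-ps12, Rpl32l, Rpl37rt, Rpl39l and Rps27rt, which are all the members without one, against 24.1% of all genes. Rpl37rt had a peak inside its span in 5 lists. Rpl10l and Rpl39l are known to be expressed mainly in the testis. The parents of the 6 by symbol were called in 9 or 10 lists each. The promoters of these 6 held a median of 10.5 CpG dinucleotides, against 22 in core genes.

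Rps27 and Rps27rt share sequence at the start and differ in peaks. The stretch common to both printed sequences runs on to 38 bases, beginning at position 2 of Rps27 and position 1 of Rps27rt, counted from the annotated start. It is the longest shared run among the 9 pairs of copy and parent with sequence, the next being 12 bases. Rps27 (chromosome 3, 90212667 to 90213648) covered 366 to 800 bp in the embryonic and 118 to 458 bp in the day 6 lists, and Rps27rt (chromosome 9, 114982366 to 114982739) had none in any. The handling of reads that map to several places is not stated in these sources, and its part in the missing peaks of near-identical copies was not tested.

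Rpl22l1 (chromosome 3, 28805508 to 28807424), the paralog of Rpl22, covered 703 to 765 bp in the embryonic and 207 to 683 bp in the day 6 lists, and had a peak over its start in all 10. The high day 6 value was the first mTEC2 library, the other 5 lying at 207 to 380 bp. Rpl36al (chromosome 12, 69182734 to 69184067, with Mgat2 within 1 kb) covered 698 to 1161 bp and 214 to 578 bp, and also had a peak over its start in all 10 lists. Rpl34-ps1 (chromosome 6, 71124589 to 71125001) was called in 4 of 4 embryonic lists (240 to 351 bp) and 3 of 6 day 6 lists (83 to 230 bp). In Rpl3l, the muscle paralog of Rpl3 (chromosome 17, 24727826 to 24736143), the peak present in all 10 lists lay beyond the end of the gene, at 24736377 to 24736713 in the first E15 list, with Msrb1 within 1 kb. No list had a peak within 1 kb of either annotated start of Rpl3l. Rps23rg1 had weak boundary peaks in 3 embryonic lists, at ranks of 76.9 to 86.4%, and none at day 6.

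For several members the annotated start lies inside the span, away from its ends. Rps2 (chromosome 17, 24718121 to 24721927) starts at 24720063, 1942 bp inside its span, and a peak lay over that start in all 10 lists, although a boundary peak was called only in the first mTEC4 and first mTEC1 lists. Rps27l, a p53-inducible paralog (chromosome 9, 66944624 to 66949522), starts 1462 bp inside its span and likewise had a peak over a start in all 10 lists and a boundary peak in the same 2. Rpl19 starts 4707 bp inside its span and had a peak over a start in 9 of 10 lists. Rpl18 starts 2604 bp inside, also with 9 of 10 lists, and its boundary peak adjoins Sphk2 and Fam83e. Rpl38, known for its part in the translation of Hox mRNAs, starts 762 bp inside, with 7 lists. In Rpl17 (chromosome 18) the peak inside the span overlapped the 1 kb window by 3 and 21 bp in the E17 lists and lay inside the span without reaching it in the other 8.

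Rpl22 (chromosome 4, 152324436 to 152334082) combined both features. A peak over one of its annotated starts was called in all 10 lists, 737 to 957 bp wide in the embryonic lists and 140 to 288 bp wide at day 6. A second, narrow peak lay within 1 kb of its far end, at 152333068 to 152333205 in the first E15 list. It was 138 and 115 bp wide at E15 and 143 and 167 bp at E17, with ranks of 14.1 and 16.0% and of 1.57 and 3.99%. At day 6 it was called only in the second mTEC1 list, 78 bp wide at a rank of 53.3%. Summed over the windows at both ends, where the first E17 list also had part of the start-side peak, the peaks covered 142 ± 31.7 bp in embryonic libraries (SD, n = 4) and 13 ± 31.8 bp at day 6 (SD, n = 6), and the groups did not overlap (exact permutation adjusted p = 0.00949). Counting only peaks with −log10 q of at least 2, Rpl22 and Rpl19 were called in 4 of 4 embryonic and 0 of 6 day 6 lists (Fisher's exact adjusted p = 0.0383 each), where 12.4% of all genes tested passed. The day 6 peak of Rpl22 in the second mTEC1 list fell out at a −log10 q of 1.75. As given above, −log10 q was lower in day 6 lists, and its part in these 2 calls was not tested. With lists of equal length, the bp difference of Rpl19 was -21.7.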

How the data were processed

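Open chromatin of thymic epithelial cells was measured by ATAC-seq in 10 libraries, grouped by their titles. The tools cutadapt, Bowtie2, Picard and MACS2 and the build mm10 are named in the submitters' processing notes. Versions, the treatment of reads that map to several places (ribosomal protein genes have many near-identical copies) and any shift of read ends are not given in the sources used here. Every library has a broad peak list of its own, as deposited by the authors, so replicates were not pooled. Each peak carries a fold enrichment, a ratio to the caller's background deposited by the authors, and a −log10 q (never below 1.0002), also deposited by the authors. The deposited score and −log10 p were not used. The lists give no read counts, so depth is unknown and limits the precision by an amount that cannot be stated.

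Peaks were set against gene spans of a RefSeq table of mm10 with windows of 1 kb at both ends, and starts came from a RefSeq promoter table of GRCm38.p6. Tests were Fisher's exact test on presence and an exact permutation test on bp covered, each over all protein-coding genes with Benjamini-Hochberg adjustment and a call at 0.05, in Python 3.11.15 with numpy 2.4.6, pandas 2.3.3 and scipy 1.17.1, tested on simulated data. Fold enrichment served only within a list. Ranks by −log10 q were taken within each list, while the q thresholds among the alternatives were the same for all lists. The members, lists and naming rule were chosen with earlier results of these data known. Named genes were 14 genes chosen by role, all copies, members without a boundary peak in 3 or more lists, the 5 widest and narrowest, the 5 best and worst ranked, the 10 largest differences past the test and the 5 with most peaks inside the span. A few members picked by this rule are not reported here and are left out of the heat map. Members named outside it were chosen after their values were seen. Alternatives covered the window, the side of the start, q thresholds, list length, peak midpoints, single libraries left out and a replicate block. Protein sequences and the promoters of 21 members were not used here.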

Additional observations from a re-analysis of the deposited data

Results flagged for a closer look

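The bp values of the 14 genes named by role and 4 summaries of all members per library were searched for a library far from the rest, in 36 groups of embryonic or day 6 libraries. Chance gives such a library in about 1 of 20 groups, and 5 were found. In the first mTEC4 library, Rpl10 covered 131 bp, Rplp2 0 bp and Rps27a 74 bp, each far below the other 5 day 6 libraries. In the first mTEC1 library Rpl11 covered 369 bp, far above the others at day 6. In the second E17 library Rplp1 covered 611 bp, below the 657 to 666 bp of the other embryonic libraries. The first mTEC4 library was also the one with the lowest share of all genes with a boundary peak, 44.0%, and whether this bears on its 3 low values was not tested.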

How the results depend on the processing

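Read depth sets what a missing peak can mean, and the lists do not give it. The count of members passing the presence test rose from 0 to 2 with −log10 q of at least 2 and to 8 with at least 5, where 12.4% and 16.4% of all genes tested passed. Both thresholds were the same for all lists, although −log10 q was lower in day 6 lists, as given above. Named after their values were seen, the 8 were Rpl7, Rpl22, Rpl23a, Rpl24, Rpl34-ps1, Rpl39, Rplp2 and Rps25. The 68 members with more bp in embryonic libraries became 13 with the 10000 strongest peaks per list (11% of all genes tested). The 64 members called in all 10 lists became 12 there (6.09% of all genes) and 11 with −log10 q of at least 5 (5.07% of all genes). Leaving out 1 library at a time gave 0 to 0 by presence, 56 to 67 by bp (63.2 to 74.5% of all genes tested) and 64 to 69 in all lists (35.6 to 39.4% of all genes).

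Replicate numbers are shared by all groups. The bp deviations of same-numbered libraries had correlations of -0.222 to 0.14 between groups. Such deviations can also carry differences in list length, so they cannot show whether same-numbered libraries came from the same animals. With the replicate block, 0 members passed by presence and 63 (75%) by bp, against 70.1% of all genes tested. Without the first mTEC4 and second mTEC2 libraries, an alternative chosen after seeing the data, 54 (64.3%) passed by bp, against 61.7% of all genes tested, 0 by presence, and 72 were called in all lists, against 43.2% of all genes. A peak over the annotated start, also chosen afterwards, gave 0 by presence. Beside the values above, the planned settings gave 53 to 75 by bp (51.4 to 82.4% of all genes tested) and 47 to 68 in all lists (27.1 to 39.2% of all genes). The 75 (93.8%) came with −log10 q of at least 5, where 80% of all genes tested passed.

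Of 926 gene results under alternatives, 811 kept their direction and their side of the threshold, 82 lost the call, 12 gained one and 21 changed sign. With the 10000 strongest peaks the embryonic minus day 6 difference in bp became -295 for Rpl10, -18.5 for Rpl23, -132 for Rpl29, -374.5 for Rpl30, -18.8 for Rpl35a, -39.7 for Rpl37a, -87.6 for Rpl5, -133.5 for Rpl7a, -48.5 for Rpl7l1, -49.8 for Rpl9, -137 for Rplp1, -37.2 for Rps15a, -120.5 for Rps18 and -56.7 for Rps4x. With lists of equal length it was -21.7 for Rpl19 and -31.6 for Rpl7. Rps2 went to 262 with a window of 2 kb and 314 at the start side, and Rps27l to 303 and 398. The causes were not tested.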
